A study of Mus musculus with 2 samples.

Results

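The miR-29 family was examined in microvesicles shed by adipocytes into their medium. Its members on the array were mmu-miR-29a, mmu-miR-29b and mmu-miR-29c (miR-29a, miR-29b and miR-29c below), taken as all non-control spots with these names, and they were 3 of the 567 mouse microRNAs (miRNAs) measured. Vesicles came from 3T3-L1 cells, a clonal mouse preadipocyte line that turns into fat-storing cells in culture. In both groups the medium was high-glucose DMEM with 10% FCS, and differentiation was started with dexamethasone at 0.25 µM, the phosphodiesterase inhibitor 3-isobutyl-1-methylxanthine at 0.5 mM, and 10 µg/ml of insulin. The groups differed in when the medium was taken after 48 h of conditioning: the early window ran from day 2 to day 4 and the late window from day 8 to day 10. Vesicles were pelleted by ultracentrifugation, and 100 ng of total RNA per window was labelled with Cy3 and hybridised to a 1-colour Agilent array. Because equal RNA masses were labelled, the signals compare a miRNA's share of the RNA and do not measure the number of vesicles. RNA carried over from the serum was not measured separately. Each window was a single array. The differences therefore carry no p-value and no check in a repeat preparation. Every error given is technical, either taken from the spread between spots or computed by the scanner software. The number of arrays limits the precision.

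miRNAs are short RNAs that guide Argonaute proteins to messenger RNAs, mainly by pairing of their seed, bases 2 to 8 from the 5′ end. The miR-29 family is known for repressing collagens, elastin, fibrillins and other extracellular matrix genes, and for repressing DNA methyltransferases. In fat cells it is known for damping insulin-stimulated glucose uptake, with higher levels in adipose tissue of diabetic animals. In the mouse the family is made from a pair of gene clusters, Mir29a with Mir29b-1 on chromosome 6 and Mir29b-2 with Mir29c on chromosome 1.

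The mature sequences (RefSeq, GRCm38.p6) are shown because the members are so alike that their probes can be hard to keep apart. Capitals mark the seed.
miR-29a: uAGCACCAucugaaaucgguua
miR-29b: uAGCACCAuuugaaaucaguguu
miR-29c: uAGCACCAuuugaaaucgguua
All 3 members matched a RefSeq entry and shared the seed AGCACCA, which pairs with the site UGGUGCU in a target. Of the 1679 mature mouse names in the RefSeq table, the members were the only 3 with this seed. Counted from the 5′ end, miR-29a and miR-29c were identical at 21 of 22 positions and differed by C10U. From miR-29c to miR-29b the changes were G18A, U21G and A22U, and miR-29b carried 1 more base at its 3′ end. The members thus differ outside the seed only.

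miR-29b has a pair of genes, whose hairpins are shown with the shared mature arm in capitals, since the array cannot say which of them a miR-29b signal came from.
Mir29b-1: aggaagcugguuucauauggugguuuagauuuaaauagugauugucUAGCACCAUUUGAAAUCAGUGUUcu
Mir29b-2: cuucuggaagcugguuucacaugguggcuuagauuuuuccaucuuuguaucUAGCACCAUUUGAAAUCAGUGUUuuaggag
On GRCm38.p6, Mir29b-1 lay on the minus strand of chromosome 6, 275 bases from Mir29a. Mir29b-2 lay on the plus strand of chromosome 1, 426 bases from Mir29c, and both of these were inside the long noncoding RNA gene A330023F24Rik. No other RefSeq gene contained Mir29a or Mir29b-1.

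The array carried 6 probes for the family, 2 per member, each printed as 10 spots. The sources used here do not name the genome build of the files' positions. By those positions, the miR-29a probes were placed on chromosome 6 at 31012673 to 31012691 and 31012673 to 31012692. The miR-29b probes were placed on chromosome 1 at 196863288 to 196863307 and 196863287 to 196863307, and the miR-29c probes at 196863795 to 196863815 and 196863794 to 196863815. The files thus list miR-29b at the Mir29b-2 side only. The intervals of an entry shared 1 end and were 19 and 20 bases long for miR-29a, 20 and 21 for miR-29b, and 21 and 22 for miR-29c. The distances between these shared ends, 38 bases from miR-29a to its passenger arm and 508 bases from miR-29b to miR-29c, equalled those between the 3′ ends in RefSeq. For miR-29a, whose arms are both 22 bases long, the distance between the 5′ ends is the same. Its shared end was the lower position, which is the 3′ side of Mir29a on the minus strand in RefSeq. A shorter interval therefore stopped short of the 5′ end, by up to 3 bases, and the positions at which the members differ lay within the intervals of all 6 probes. Levels of different probes are not compared here, because each probe has its own brightness.

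All members were detected in both windows and all gave more signal in late vesicles, by 5.62-fold for miR-29b, 3.65-fold for miR-29c and 1.81-fold for miR-29a. Signals are processed intensities, the spot brightness after subtraction of a fitted background surface. Scaled values were divided by the array's 75th percentile of the 279 probes detected on both arrays, which was 108 at day 2-4 and 95.2 at day 8-10. They were then multiplied by the geometric mean of these 2 percentiles. A spot was well above background by the scanner software's flag, a probe detected where more than 0.5 of its spots were, and a miRNA detected where at least 1 probe was. To be counted as different, a miRNA had to be detected in both windows, with a ratio of 2-fold or more and a gap above 2 spot standard errors (SE). By this rule 2 of the 3 members were counted as higher and none as lower, beside 16.6% higher, 8.28% lower and 24.8% in either direction among the 145 miRNAs detected on both arrays. Before any scaling, all 60 miR-29 spots were brighter at day 8-10 than the spot at the same position at day 2-4. The same held for 50.6% of the 2327 spots of probes detected on both arrays. The 60 spots belong to 6 probes on a single pair of arrays and are not independent observations.

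miR-29b showed the largest gap between the windows, and it rested on 1 of its 2 probes. For the 21-base probe the 10 spots ran from 8.92 through a median of 11.1 to 14.6 intensity units at day 2-4. At day 8-10 the same spots ran from 56.3 through a median of 58.5 to 68.2 units, and the brightest of them was marked as an outlier and left out. The ranges did not overlap, and spot by spot the late signal was 4.08 to 6.32 times the early signal. The mean was 11.7 ± 1.72 units (SD, n = 10 spots) at day 2-4 and 57.9 ± 1.27 units (SD, n = 9 spots) at day 8-10, which after scaling gave a log2 difference of 2.49 (spot SE 0.068). The early mean was 2.41 times the 4.86 units of the dimmest detected probe of that array, so it was measured near the lower end of the range.

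The 20-base miR-29b probe, whose interval is 1 base shorter at the 5′ side, was not well above background in any of its 10 spots on either array. Its spots ran from -0.76 through a median of 0.83 to 2.35 units at day 2-4 and from 2.00 through a median of 3.79 to 5.08 units at day 8-10. The spots of the late array were the brighter at all 10 positions, but the ranges overlapped. Negative control spots had a mean of -0.288 ± 0.983 units (SD, n = 660 spots) at day 2-4 and -0.326 ± 1.02 units (SD, n = 656 spots) at day 8-10. Since both windows were below the detection rule, no fold is given for this probe.

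miR-29c was higher in late vesicles with both of its probes. The 21-base probe ran from 10.6 through a median of 12.8 to 14.6 units at day 2-4 and from 38.0 through a median of 41.7 to 43.1 units at day 8-10. The 22-base probe, which spans the whole miRNA, ran from 13.5 through a median of 15.4 to 18.2 units at day 2-4 and from 46.3 through a median of 47.8 to 52.1 units at day 8-10. On neither probe did the windows overlap. The scaled log2 differences were 1.90 (spot SE 0.055) and 1.83 (spot SE 0.052), so the probes differed by 0.067, which was less than their combined spot error. Their mean gave miR-29c a log2 difference of 1.87 (spot SE 0.038).

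miR-29a was also higher in late vesicles, with a smaller ratio. After scaling its probes fell on either side of 2-fold. Before scaling the ratios were 1.79 for the 19-base probe and 1.41 for the 20-base probe, both under 2-fold. The 19-base probe ran from 76.8 through a median of 84.8 to 88.6 units at day 2-4 and from 143 through a median of 151 to 161 units at day 8-10. The 20-base probe ran from 282 through a median of 311 to 331 units at day 2-4 and from 387 through a median of 436 to 471 units at day 8-10. Again no early spot reached the dimmest late spot on either probe. The 19-base probe was 2.04-fold higher after scaling (log2 difference 1.03, spot SE 0.021), and the 20-base probe 1.61-fold (0.68, spot SE 0.037). These differ by 0.34, more than their spot errors, so the 1.81-fold of miR-29a (log2 difference 0.85, spot SE 0.021) averages probes that did not give the same ratio.

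**Figure D1:**
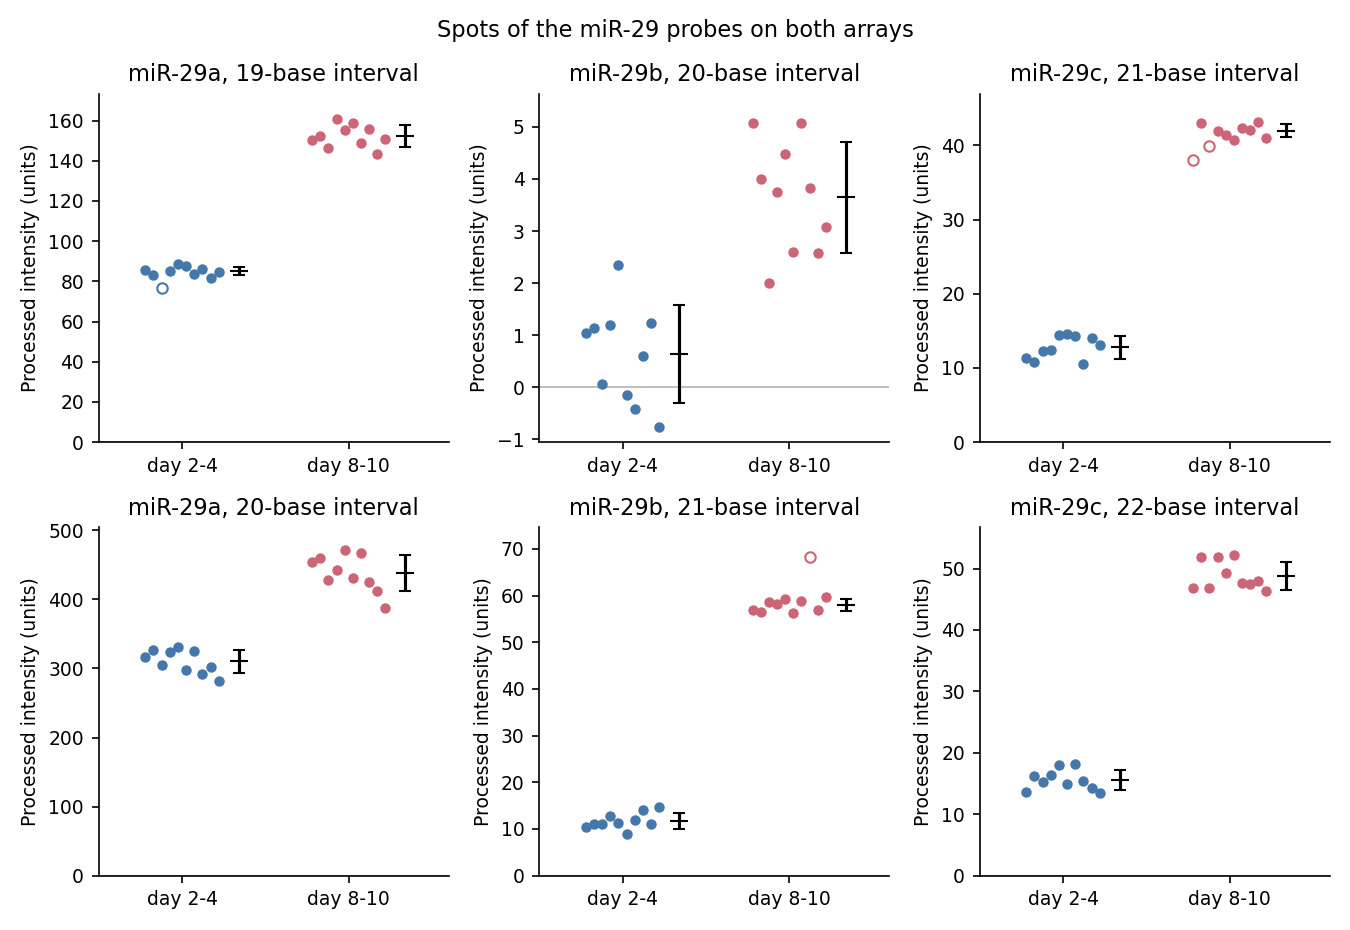
Processed intensity (units, linear axis) of every spot of the 6 miR-29 probes, 1 panel per probe, for the day 2-4 array (blue) and the day 8-10 array (red). Open circles are spots marked as outliers, and the bars beside the spots give the mean ± SD of the others. On 5 probes all late spots lie above all early spots. On the 20-base miR-29b probe, where no spot is well above background, the ranges overlap.

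The gene signal, a total that the scanner software computes for each entry from its probes, gave the same order of ratios before any scaling. It went from 8.18 ± 1.25 units (software error) to 41.0 ± 4.00 units for miR-29b, a ratio of 5.02. For miR-29c it went from 18.8 ± 1.66 to 60.5 ± 4.41 units, a ratio of 3.22. For miR-29a it went from 262 ± 21.3 to 393 ± 31.0 units, a ratio of 1.50. The gap between the windows was 7.84, 8.86 and 3.50 times the combined software error for miR-29b, miR-29c and miR-29a, an error that holds no variation between preparations.

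The members did not share 1 ratio. The log2 difference of miR-29b exceeded that of miR-29a by 1.64 (spot SE 0.071) and that of miR-29c by 0.62 (spot SE 0.078), and miR-29c exceeded miR-29a by 1.01 (spot SE 0.044). Each of these gaps was larger than the spread between spots, and none has a replicate check. How far the probes of such like sequences share signal was not tested. The order miR-29b, miR-29c, miR-29a held in 13 of 14 other settings. It changed to miR-29c, miR-29b, miR-29a when undetected probes were included, where the 20-base probe drew miR-29b to a log2 difference of 1.43. With normexp background correction, which adds an offset of 50 units to every spot and so outweighs dim signals, the members lay at 0.88 (miR-29b), 0.65 (miR-29c) and 0.61 (miR-29a), and none was counted as different.

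**Figure D2:**
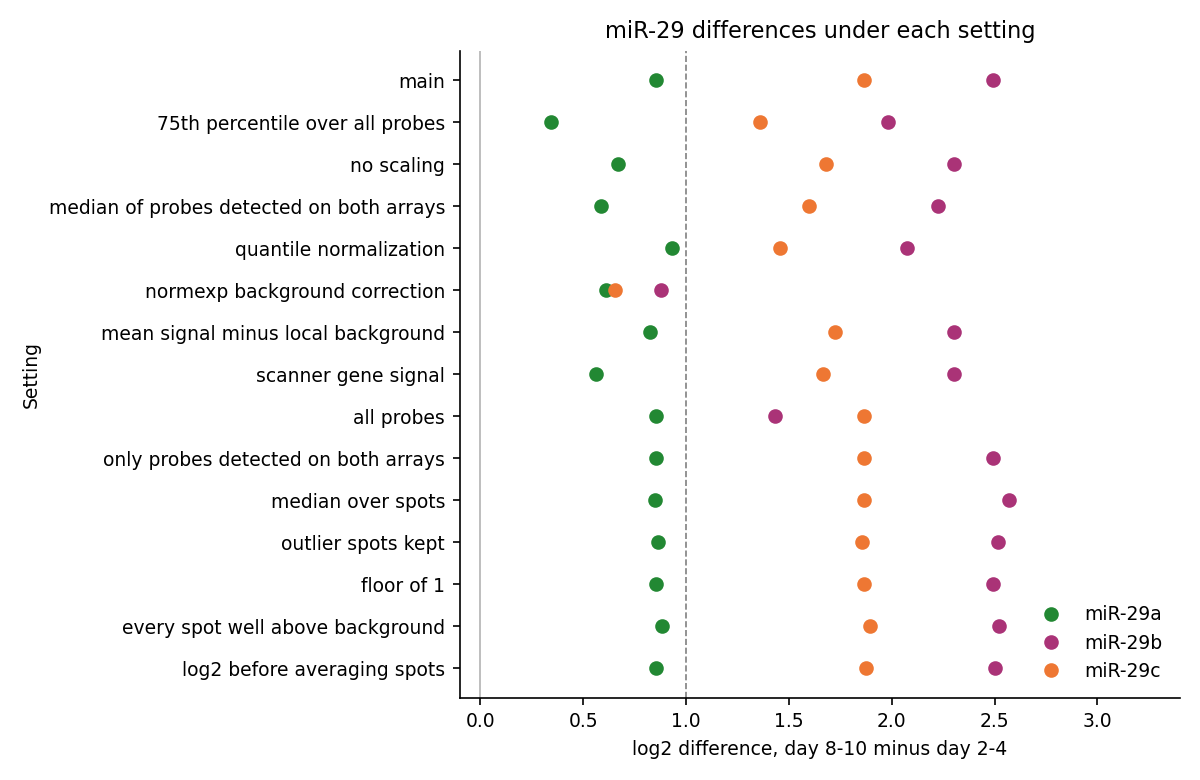
log2 difference (day 8-10 minus day 2-4) of miR-29a (green), miR-29b (purple) and miR-29c (orange) under the main setting and 14 other settings, with the dashed line at 2-fold. All 3 members lie above 0 in each setting. miR-29b and miR-29c stay past the 2-fold line except with normexp background correction.

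The passenger arms of the same hairpins, the strands usually discarded when a miRNA is loaded, were not detected. The sequences are shown because they share no seed with the mature members (RefSeq, GRCm38.p6, seed in capitals).
miR-29a*: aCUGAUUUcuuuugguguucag
miR-29b*: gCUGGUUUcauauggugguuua
miR-29c*: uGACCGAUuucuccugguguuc
None of the 60 spots of their 10 probes was well above background on either array. Probe means ran from -0.71 to 0.62 units at day 2-4 and from -0.55 to 1.85 units at day 8-10, and 36 of the 60 spots were brighter at day 8-10. The files place miR-29b* at the Mir29b-1 gene, so no entry measured the passenger arm of Mir29b-2.

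Among the 145 miRNAs detected on both arrays, ordered from the largest gain to the largest loss, miR-29b took place 4, miR-29c place 8 and miR-29a place 29. Over the 14 other settings miR-29b lay between places 4 and 10 (10 with undetected probes included, 8 with normexp), miR-29c between 6 and 12, and miR-29a between 13 (normexp) and 36 (scanner gene signal). The median log2 difference was 1.87 over the 3 members and 0.20 over all 145. The spot ranges of 30.8% of the 279 probes detected on both arrays were separate with the late spots higher, before scaling, while this held for all 5 detected miR-29 probes. In the same way 34.1% of those 279 probes had every spot brighter at day 8-10.

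**Figure D3:**
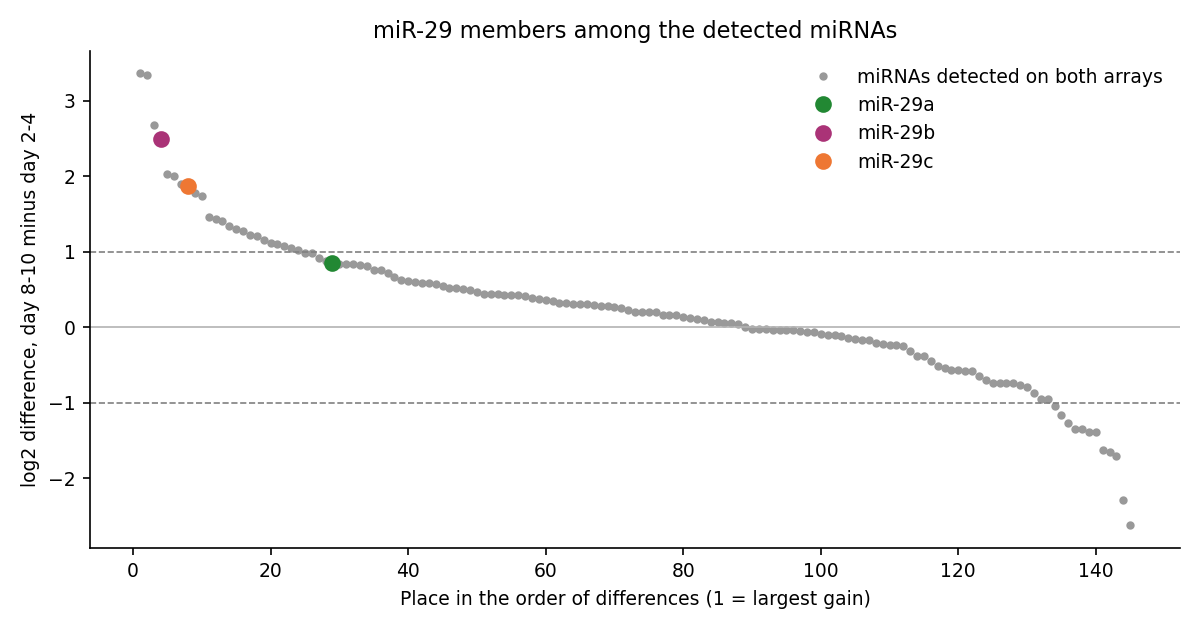
log2 difference (day 8-10 minus day 2-4) of the 145 miRNAs detected on both arrays, ordered from the largest gain at place 1. Dashed lines mark 2-fold. miR-29b (place 4) and miR-29c (place 8) lie among the largest gains, and miR-29a (place 29) just under the upper line.

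The miRNAs whose difference lay nearest to the family median were miR-148a, miR-103, miR-718 and miR-494, by the absolute gap between log2 differences over the 2 arrays. miR-148a, an miRNA known to rise in fat cell differentiation, had a log2 difference of 1.90, a gap of 0.028. miR-103, known for lowering insulin sensitivity, had 1.78, a gap of 0.089. miR-718 had 1.74, a gap of 0.13, and miR-494 had 2.01, a gap of 0.14. With a single value per window, such a likeness says only that the ratios were close.

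In 3 other miRNA families set beside miR-29, the median differences were smaller. The median of the miR-30 family, whose members are known for promoting adipogenesis, was 0.84, with 5 members from -0.098 to 1.10. Of these, 2 (40%) were counted as higher, beside 16.6% of all 145. The count was 0 with no scaling (12.4% of all 145), quantile (11.7%) or median scaling (11.0%). It was also 0 with all probes setting the percentile (6.90%) or normexp (3.45%). Over miR-148a, miR-148b and miR-152 the median was 0.81, with a range of 0.59 to 1.90 and 1 (33.3%) counted as higher. The let-7 family with miR-98, known for restraining proliferation, had a median of 0.52 over 9 members from -0.39 to 1.23. Of these 9, 2 (22.2%) were counted as higher, near the 16.6% of all 145. When all probes set the percentile, the let-7 median was 0.012 and 0 were counted. The let-7 count was 1 with no scaling, and 0 with median scaling, normexp or the scanner gene signal (13.1% of all 145). Of these 17 miRNAs, only miR-148a exceeded miR-29c and none exceeded miR-29b under the main setting. With undetected probes included miR-29b had 1.43, below the 1.90 of miR-148a, both of whose probes were already in use. With normexp 1 member of the miR-148a family was still counted as higher, while miR-29b (0.88) was not.

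miRNAs known for acting on the matrix and fibrosis, the field in which the miR-29 family is best known, were counted as higher about as often as all detected miRNAs under the main setting. Of the 32 listed besides miR-29, 16 were detected on both arrays, 4 on 1 array and 12 on neither. Of the 16, 3 were counted as higher, 2 as lower and 11 as neither. Thus 18.8% were higher beside 16.6% of all 145, and 2 of 16 were lower beside 8.28%. The median log2 difference of the 16 was 0.61, beside 0.20 over all 145. The list includes the miR-30 family described above. The higher ones were miR-192 (1.15), a miRNA of kidney fibrosis, and miR-30e (1.10) and miR-30c (1.02), the latter known for repressing the matrix protein CTGF. The lower ones were miR-214 (-1.63) and miR-199a-5p (-1.39), miRNAs of mesenchymal cells known as promoters of fibrosis. miR-21, another promoter of fibrosis, had 0.16, and its sign turned under 4 of 14 other settings. The count of higher entries rested on the scaling and the background correction. It was 0 with no scaling, beside 12.4% of all 145, and 0 with median scaling (11.0%) or quantile normalization (11.7%). It was also 0 when all probes set the 75th percentile (6.90%) and with normexp (3.45%).

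On the list for insulin action and fat cell metabolism, 28.6% of the miRNAs detected on both arrays were counted as higher and 0 as lower, beside 16.6% and 8.28% of all 145. With so few entries these shares are not read as particular to the list. Of the 22 listed besides miR-29, 14 were detected on both arrays, of which 4 were counted as higher and 10 as neither. The median log2 difference of the 14 was 0.61, beside 0.20 over all 145. The higher ones were miR-103 (1.78), miR-107 (1.47), miR-210 (1.41), known as a hypoxia-induced miRNA, and miR-378 (1.34), which lies in a gene of mitochondrial metabolism. miR-143 had 0.76, miR-26b 0.98 and miR-221 -0.57. When all probes set the 75th percentile, 1 of the 14 was counted as higher and 1 as lower, beside 10 and 29 of all 145. With normexp background correction 1 was counted as higher, beside 3.45% of all 145. miR-103 with miR-107 are near-identical and may share signal.

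**Figure D4:**
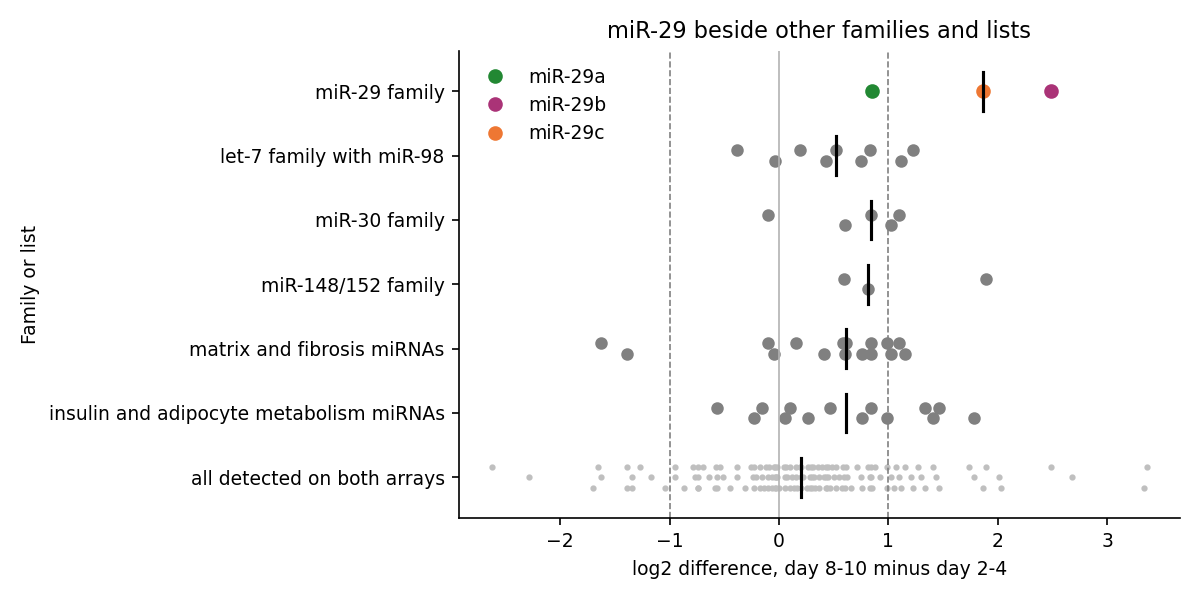
log2 difference (day 8-10 minus day 2-4) of each miRNA detected on both arrays, by family or list, with all 145 at the bottom. Vertical bars mark medians and dashed lines 2-fold. The miR-29 median lies at 1.87 and those of the other families and lists between 0.52 and 0.84.

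Under the main setting, most listed markers of fat cells were counted as higher in late vesicles, as miR-29b and miR-29c were. The list was chosen with earlier results of these data known, so its count does not stand apart from these data. It also holds near-identical entries such as miR-103 and miR-107. Its higher entries include miR-103, miR-107, miR-210 and miR-378 of the insulin list, and miR-148a, miR-30c and miR-30e of the families above. Its count is therefore not separate from theirs. All 12 miRNAs listed for adipocytes and adipogenesis were detected on both arrays. Of them 9 (75%) were counted as higher at day 8-10, beside 16.6% of all 145. The log2 differences over the list ran from -0.035 (miR-193b) to 1.90 (miR-148a). The count of higher entries was 2 with normexp background correction, beside 3.45% of all 145. It was also 2 when all probes set the 75th percentile, beside 6.90%. With no scaling it was 6 of 12, beside 12.4%, and also 6 with median scaling (11.0%) or quantile normalization (11.7%). The summed scaled signal of the 12 was 424 at day 2-4 and 1032 at day 8-10. Of 7 listed for fibroblast and mesenchymal cells, 5 were detected, with sums of 1113 and 916, and miR-145 and miR-196a were undetected. Of these 5, 2 were counted as lower, beside 8.28% of all 145. The log2 differences were -1.63 for miR-214, -1.39 for miR-199a-5p, -0.95 for miR-199b and -0.23 for miR-10b. miR-22 went the other way, with 0.59. Of 7 for blood and serum, 3 were detected on both arrays, miR-144 at day 8-10 only, and miR-142-3p, miR-142-5p and miR-150 on neither. The log2 differences of the 3 were 0.042 for miR-451, 0.051 for miR-486 and -0.23 for miR-223, and the sign of each turned under some settings. Their summed signals, most of which came from miR-451, were 679 and 697. Of 7 epithelial miRNAs miR-205 was detected, at day 8-10 only. All 4 muscle miRNAs, the 2 endothelial ones and liver miR-122 were undetected, and of 3 neural ones miR-128 was detected, with scaled signals of 8.95 and 6.86. The part of the cells' state in the miR-29 differences was not tested. Both arrays lay on the same slide, and preparation, labelling and time window cannot be told apart.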

How the data were processed

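Total RNA of vesicles from each window was measured on 1 Agilent 1-colour mouse miRNA array. The deposited measurement is a linear intensity for each spot. Per the file headers, the scanner software (Agilent Feature Extraction 9.5.3.1) subtracted a fitted background surface from it and did not scale arrays to each other. Flags for outlier, saturated and well-above-background spots are deposited too. The deposited series table held the same intensity for 24986 of 24986 spots (relative tolerance 1e-06), with medians of 0.516 and 0.646, so it is linear and not centred. Control spots and outlier spots (239 and 249) were left out, and no spot was saturated. Spots were averaged per probe on the linear scale, scaled by the 75th percentile over probes detected on both arrays, floored at the signal of the dimmest detected probe (4.86 and 5.55 units) and log2 transformed. Probes detected on either array were then averaged per miRNA. In all, 156 and 166 miRNAs were detected. Alternatives changed the scaling, background correction (limma 3.58.1), probe and spot summary, outlier flags, floor and detection rule. The calculation was tested on simulated arrays. Named were all miR-29 probes and passenger arms, the 4 miRNAs nearest to the family median, and entries of the 2 lists and the marker lists, with comparison families given by counts and ranges. The members and lists were chosen with earlier results of these data known. Python 3.11.15 was used.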

Additional observations from a re-analysis of the deposited data

How the results depend on the processing

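All 3 members kept a positive difference under 14 of 14 alternatives, of which the mean of log2 spot values was chosen after seeing the data. miR-29b and miR-29c were counted as higher under 13 of 14, and miR-29a under none. With normexp background correction the number of members counted was 0, and the log2 differences were 0.88 (miR-29b), 0.65 (miR-29c) and 0.61 (miR-29a). With the 75th percentile over all probes they were 1.98, 1.36 and 0.35 in the same order, and with the median of the probes detected on both arrays 2.22, 1.60 and 0.59. With no scaling miR-29c had 1.68 and miR-29a 0.67. Quantile normalization gave 2.07 for miR-29b and 1.45 for miR-29c, the scanner gene signal 1.66 for miR-29c and 0.56 for miR-29a, and all probes 1.43 for miR-29b. The scaling moved the median of all 145 detected miRNAs from 0.20 to -0.31 (all probes), -0.065 (median) or -0.11 (quantile). Their counts went from 24 higher and 12 lower to 10 and 29 (all probes), 16 and 21 (median), 18 and 15 (no scaling), 17 and 17 (quantile), 19 and 17 (scanner gene signal) or 5 and 5 (normexp). The excess of the family median over the median of all miRNAs ran from 0.53 (normexp) to 1.67. No paired analysis was possible because each window has 1 array. The dim early signals of miR-29b and miR-29c limit the precision of their ratios.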

Other observations

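Of the 1316 mouse miRNA probes detected on neither array, 60 (4.56%) had every spot brighter at day 8-10 than at day 2-4, and the 20-base miR-29b probe was among them. The 1316 held 8425 spots, so on average fewer per probe than the 10 of the miR-29b probe. Fewer spots are more easily all brighter, so the 4.56% is not a like measure for that probe. Over all spots of those undetected probes 52.9% were brighter at day 8-10. Of the 101 miRNAs with several probes detected on both arrays, 13 (12.9%) had a wider gap between the log2 differences of their probes than the 0.34 of miR-29a, and the median gap was 0.097. For 6 of the 101 the probes lay on either side of the 2-fold line under the main setting, miR-29a included.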
